A study of Mus musculus with 12 samples.

Results

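Fatty acid uptake and mitochondrial fatty acid oxidation are described here through 38 genes, measured in Leydig cells cut from the testes of mice given di-(2-ethylhexyl) phthalate (DEHP) or its vehicle. The genes were taken by name: each probe of the array whose gene name was one of the 38 symbols, or the older names Hadhsc for Hadh, Dci for Eci1 and Adfp for Plin2, was counted as theirs. All 38 had at least 1 probe, with 57 of the 41174 probes of the array, and 45 of these 57 gave signal well enough above background to be tested. They covered 33 of the 38 genes, among 15830 genes tested in all. The other 5, Acads, Acot2, Decr1, Slc25a20 and Ucp3, had no probe that passed.

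Leydig cells are the testosterone-producing cells between the seminiferous tubules. Adult male C57BL/6J mice, 21 weeks old, were gavaged daily for 21 days with DEHP, a plasticiser, at 200 mg per kg in corn oil, or with corn oil alone. RNA from the laser-captured cells of single mice was amplified in 2 rounds, labelled with the dyes Cy3 and Cy5 and hybridised in pairs to 2-colour Agilent arrays. DEHP mice 1 and 4 were each set against vehicle mice 1, 2 and 4 in both dye orientations, which made 12 arrays from 5 animals. The mouse was the replicate (2 DEHP and 3 vehicle animals), and the number of arrays limits the precision of each mouse's value. Per the labels 4 mice of each group were dosed; those without arrays here are not analysed here. The captured material is tissue cut around Leydig cells and not a purified culture, and each extract comes from 1 cap of 1 testis.

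Long-chain fatty acids enter cells through CD36 and fatty acid transport proteins, travel on fatty acid binding proteins and are activated to acyl-CoA by synthetases. The carnitine shuttle then carries them into mitochondria, where the acyl-CoA dehydrogenases, hydratases, hydroxyacyl-CoA dehydrogenases and thiolase shorten them and the electron transfer flavoprotein passes their electrons to the respiratory chain. In liver many of these genes are induced through the nuclear receptor PPAR alpha, which metabolites of DEHP activate; in Leydig cells the same acyl-CoA pools also stand beside cholesterol ester storage and steroid synthesis.

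Each value rests on 60-base probes, and several results below turn on which stretch of a transcript a probe reads. The following probe sequences are those of the members that separated the groups or ran against most others between extracts (Cpt1b, Acsl5, Acsl1, Fabp1). Also printed are those of Acsl4, whose probes disagreed, and of Oxct1, whose probes gave differences of unlike size. The remainder are of central enzymes that were not detected (Slc25a20, Acads). For Cpt1b, Acsl1, Acsl4 and Oxct1 the printed probe is not the one that stood for the gene. The groups overlapped for the printed Cpt1b probe. All sequences are as deposited, 5′ to 3′, with positions on mouse assembly mm7.
Cpt1b, second probe, chr15:89499769-89499828, minus strand: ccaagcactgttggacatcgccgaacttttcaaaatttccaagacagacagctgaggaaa
Acsl5, chr19:55208487-55209075, plus strand: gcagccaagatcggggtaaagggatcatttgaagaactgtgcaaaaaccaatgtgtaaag
Acsl1, second probe, chr8:45312289-45312348, plus strand: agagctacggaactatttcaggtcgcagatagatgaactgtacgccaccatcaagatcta
Fabp1, chr6:71222913-71222972, plus strand: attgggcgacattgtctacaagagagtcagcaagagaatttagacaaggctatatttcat
Acsl4, second probe, chrX:136984972-136985031, minus strand: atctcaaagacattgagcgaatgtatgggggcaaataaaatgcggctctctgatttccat
Oxct1, junction probe, chr15:3929522-3956535, plus strand: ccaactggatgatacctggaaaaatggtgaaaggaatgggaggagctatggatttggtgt
Slc25a20, chr9:108395979-108396038, plus strand: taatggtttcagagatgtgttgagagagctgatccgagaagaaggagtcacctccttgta
Acads, chr5:114331711-114331770, minus strand: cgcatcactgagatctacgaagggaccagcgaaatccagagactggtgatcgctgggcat
The listed positions of the Acsl5 and Oxct1 probes span 589 and 27014 bases for 60 bases of probe, so each of them crosses at least 1 exon junction. GC content ran from 35.0% to 55.0%, with a median of 41.7%, over the probes that stood for 32 of the tested genes.

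The material carried Leydig cell RNA: all 13 Leydig cell markers passed the filter, and Star, Cyp11a1, Cyp17a1, Hsd3b1 and Insl3 cleared background, as the scanner's flag for signal well above it marks, on all arrays. It also carried RNA of other testis cells, with 18 of 18 spermatid, 10 of 11 spermatocyte, 11 of 12 Sertoli cell, 12 of 12 macrophage, 10 of 12 endothelial and 7 of 7 peritubular myoid markers with a probe passing. Of the adipocyte markers, Retn and Lep were not well above background on any array, Cfd was on none of the DEHP and a share of 0.333 of the vehicle channels, and Adipoq, Plin1 and Cidec passed. In bulk extracts such as these, fewer cells of a type and less RNA per cell cannot be told apart. Levels below are log2 values for single mice, with the mean over all 5 set to 0, and differences are DEHP minus vehicle means of these levels.

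After DEHP, fatty acid oxidation genes were not shown to differ from vehicle. None of the 33 tested genes passed limma's test at an adjusted p of 0.05, with an adjusted p of 1 for each, and none of all genes tested passed (0%). At an unadjusted p under 0.05 there was 1 member, Cpt1b, against 0.859% of all genes tested (136 genes). The groups did not overlap for 2 members, Cpt1b and Acsl5, or 2 of 33 against 9.17% of all genes. Below 0 lay 23 members and above 0 lay 10, against 51.7% of all genes below 0, and the median difference was -0.12 against -0.01 over all genes. The 95% intervals reached a median of 1.08 (log2) to either side, and ran from 0.50 to 2.36. They are not adjusted for the number of genes tested. With 5 mice, even a difference beyond a member's own interval width could thus fail to pass, as that of Cpt1b did. The differences themselves all stayed within 1 on the log2 scale, from -0.69 for Fabp3 to 0.76 for Cpt1b.

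**Figure D1:**
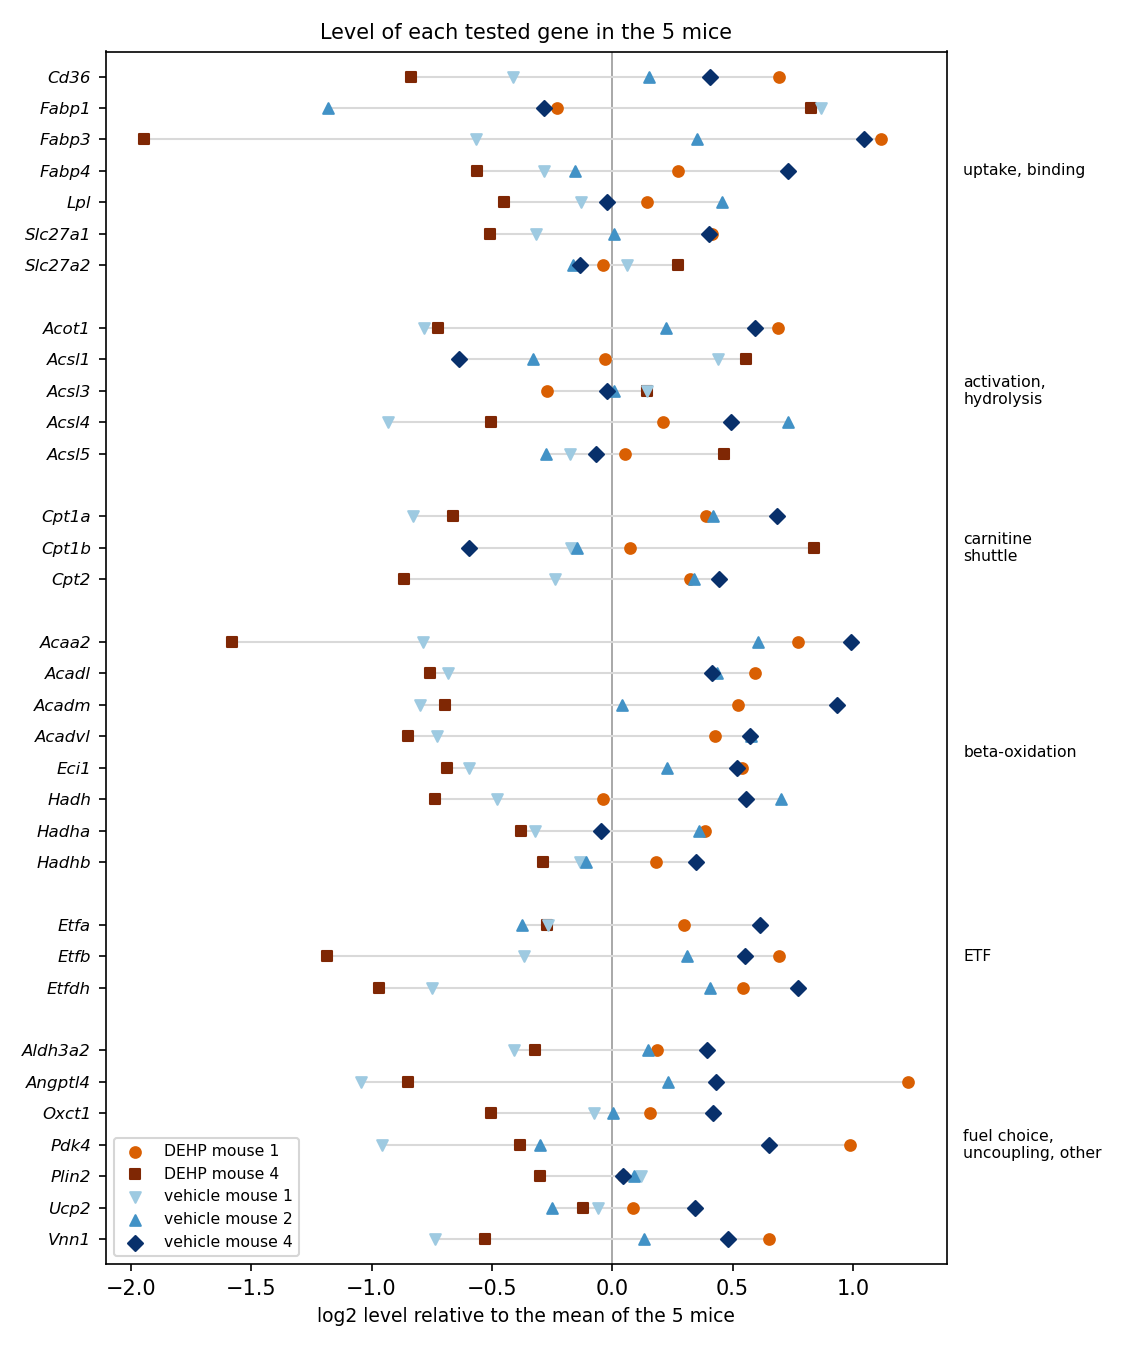
Level of the 33 tested genes in each of the 5 mice, as log2 level relative to the mean of the 5 mice (x axis), with the genes in order of role (y axis) and a grey line from the lowest to the highest mouse. For most genes DEHP mouse 4 (dark squares) and vehicle mouse 1 (light triangles) sit at the low end and DEHP mouse 1 and vehicle mouse 4 at the high end, so that the groups overlap for 31 of the 33 genes.

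Of the genes for uptake and binding, all 7 were tested, 5 differed by less than 0 and 2 by more, and none passed the test. Cd36, the fatty acid translocase, lay at 0.69 and -0.84 with DEHP (mice 1 and 4) and -0.41, 0.15 and 0.41 with vehicle (mice 1, 2 and 4). Both the highest and the lowest of these values came from the DEHP group. The difference was -0.12 (SE 0.50), with a 95% interval of -1.37 to 1.13. Lpl, the lipase that frees fatty acids from lipoproteins, lay at 0.14 and -0.45 with DEHP (mice 1 and 4) and -0.13, 0.46 and -0.02 with vehicle (mice 1, 2 and 4). Its groups overlapped, with a difference of -0.25 (SE 0.29), and its probe cleared background in a share of 0.667 of the DEHP and 0.833 of the vehicle channels.

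Fabp3, the heart-type fatty acid binding protein, had the widest spread of any member. Its level was 1.12 and -1.95 with DEHP (mice 1 and 4) and -0.57, 0.35 and 1.04 with vehicle (mice 1, 2 and 4). The DEHP mice took both ends of that range. The difference of -0.69 (SE 0.95) therefore had an interval of -3.05 to 1.67, the widest among the members. Fabp4, the binding protein of adipocytes and macrophages, lay at 0.27 and -0.56 with DEHP (mice 1 and 4) and -0.28, -0.16 and 0.73 with vehicle (mice 1, 2 and 4). Vehicle mouse 4 was highest and DEHP mouse 4 lowest, and the difference was -0.24 (SE 0.41). Slc27a1, a fatty acid transport protein of the plasma membrane, lay at 0.41 and -0.51 with DEHP (mice 1 and 4) and -0.32, 0.01 and 0.40 with vehicle (mice 1, 2 and 4). DEHP mouse 1 and vehicle mouse 4 were level with each other at the top, and the difference was -0.08 (SE 0.36). The liver-type binding protein gene Fabp1 differed by 0.50 (SE 0.65) and Slc27a2, a transporter with very-long-chain acyl-CoA synthetase activity, by 0.20 (SE 0.21), both with overlapping groups. With the scanner's processed signals Slc27a2 differed by 1.42, Fabp1 by 0.87 and Lpl by -0.83, none past the test. The Slc27a2 probe cleared background in a share of 0.5 and 0.417 of the DEHP and vehicle channels.

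Activation to acyl-CoA was covered by 4 long-chain acyl-CoA synthetases, and hydrolysis of acyl-CoA by the cytosolic thioesterase Acot1. Of these 5 genes 2 differed by more than 0 and 3 by less, with none past the test. Acsl5 lay at 0.05 and 0.46 with DEHP (mice 1 and 4) and -0.18, -0.28 and -0.07 with vehicle (mice 1, 2 and 4). Both DEHP mice were above all 3 vehicle mice, although DEHP mouse 1 exceeded vehicle mouse 4 by a margin far smaller than the gap between the DEHP mice. The difference of 0.43 (SE 0.22), a fold of 1.35, had an unadjusted p of 0.097 and an adjusted p of 1 in limma.

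Acsl1 lay at -0.03 and 0.56 with DEHP (mice 1 and 4) and 0.44, -0.33 and -0.63 with vehicle (mice 1, 2 and 4). Vehicle mouse 1 was above DEHP mouse 1, so the groups overlapped, and the difference was 0.44 (SE 0.38). Acsl4, a synthetase that prefers arachidonic acid, lay at 0.21 and -0.50 with DEHP (mice 1 and 4) and -0.93, 0.73 and 0.49 with vehicle (mice 1, 2 and 4). Here vehicle mice gave both the highest and the lowest value, and the difference was -0.24 (SE 0.55). Acot1 lay at 0.69 and -0.72 with DEHP (mice 1 and 4) and -0.78, 0.22 and 0.59 with vehicle (mice 1, 2 and 4). The levels fell into a low pair, DEHP mouse 4 and vehicle mouse 1, and a higher remainder, and the difference was -0.03 (SE 0.57). The probe of Acot2, the mitochondrial relative of Acot1, was not well above background on any array. Acsl3, a synthetase of the endoplasmic reticulum and lipid droplets, differed by -0.11 (SE 0.22).

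The carnitine shuttle held the 1 member with an unadjusted p under 0.05. Cpt1b, the carnitine palmitoyltransferase named for muscle, was read by a probe at chr15:89499336-89499395 on the minus strand (mm7) and lay at 0.07 and 0.84 with DEHP (mice 1 and 4) and -0.17, -0.14 and -0.59 with vehicle (mice 1, 2 and 4). Both DEHP mice were above the vehicle mice, DEHP mouse 4 by a wide margin and DEHP mouse 1 by less. The difference of 0.76 (SE 0.31), a fold of 1.69, had an interval of 0.0025 to 1.51, an unadjusted p of 0.0495 and an adjusted p of 1 in limma. The second Cpt1b probe, printed above, lies upstream on the transcript and gave another picture. It read 0.45 and -0.03 with DEHP (mice 1 and 4) and 0.29, -0.11 and -0.61 with vehicle (mice 1, 2 and 4). The groups overlapped there and the order of the DEHP mice was turned, with a difference of 0.35 (SE 0.32). That probe cleared background in a share of 0.917 of the DEHP and 0.583 of the vehicle channels, and the first probe in all. Spermatid markers lay on the same side between the groups: 17 of 18 were above 0, with a median difference of 0.59. Of all genes tested 51.7% were below 0, with a median of -0.01. The groups did not overlap for 4 of the 18 markers, against 9.17% of all genes tested. Of the spermatid markers 3, Hspa1l, Prm1 and Tnp1, had an unadjusted p under 0.05 in limma, against 0.859% of all genes tested. None of them passed limma's test after adjustment (adjusted p of 1 for each). The part of spermatid RNA in the differences of Cpt1b and Acsl5, and of the testis-form gene Oxct2a described below, was not tested.

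Cpt1a, the widely expressed outer-membrane form and the entry gate of the shuttle, lay at 0.39 and -0.66 with DEHP (mice 1 and 4) and -0.83, 0.42 and 0.68 with vehicle (mice 1, 2 and 4). DEHP mouse 4 lay between the vehicle mice and DEHP mouse 1 below 2 of them, and the difference was -0.23 (SE 0.55). Its probe stood in 10 spots on each array, whose log ratios had a median SD of 0.033 within an array, while the 5 mice had an SD of 0.69. Cpt2, which rebuilds acyl-CoA inside the mitochondrion, lay at 0.32 and -0.86 with DEHP (mice 1 and 4) and -0.24, 0.34 and 0.44 with vehicle (mice 1, 2 and 4). DEHP mouse 4 alone was well below the others, and the difference was -0.45 (SE 0.42). The carnitine-acylcarnitine carrier gene Slc25a20, which links the transferases across the inner membrane, was not well above background on any array, so no level is given for it.

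**Figure D2:**
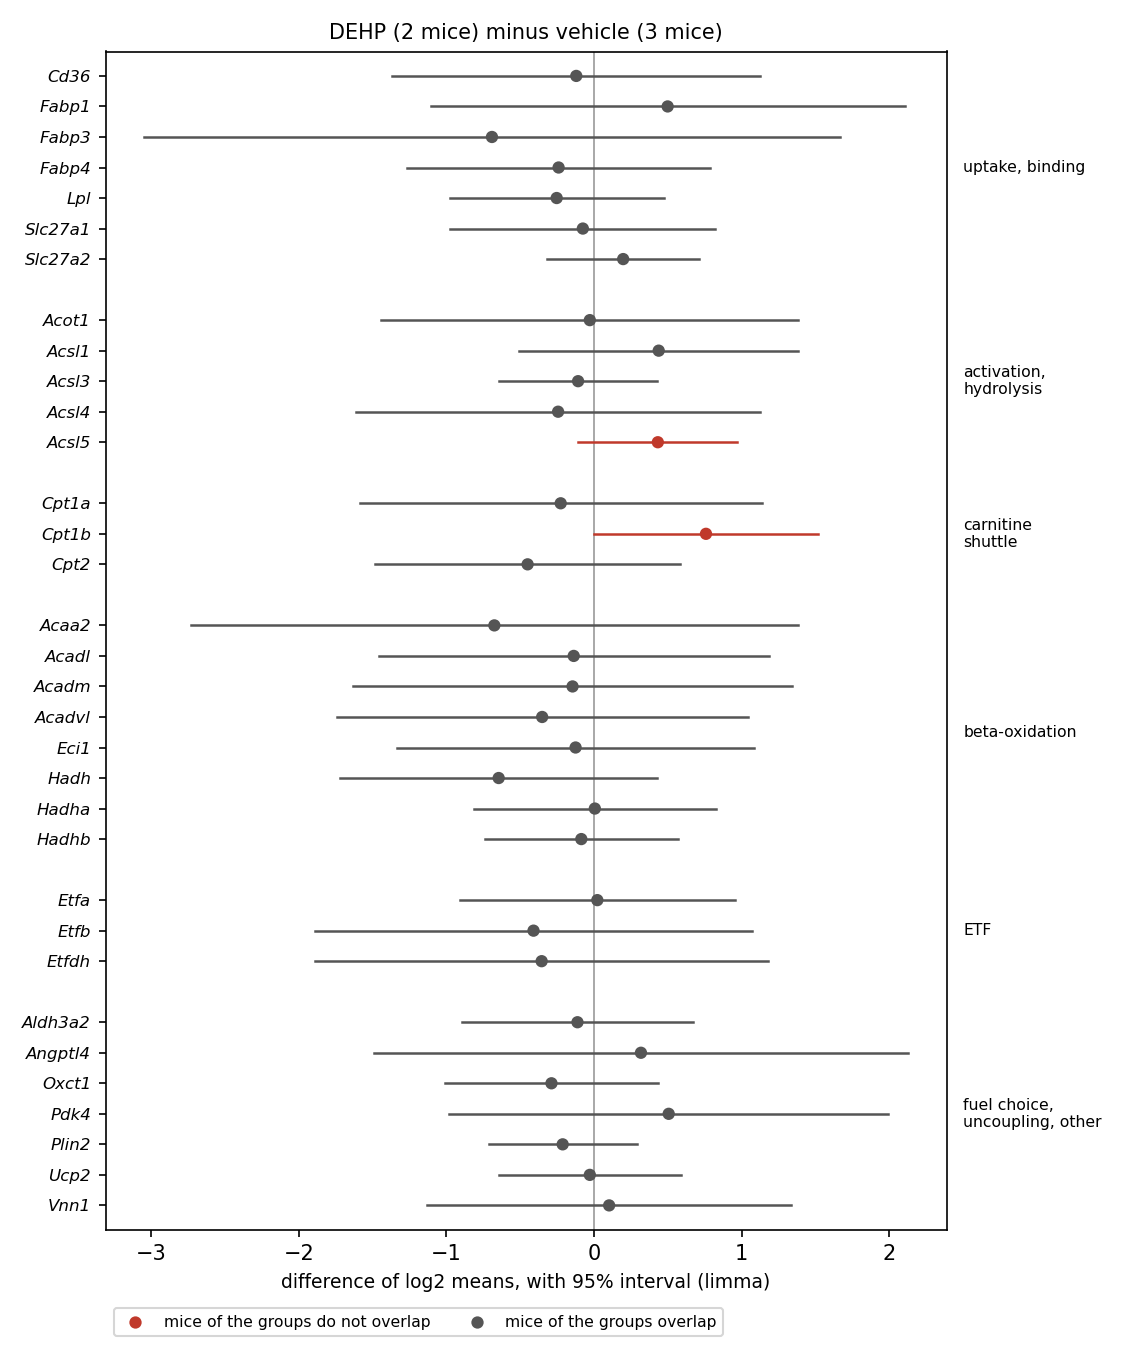
Difference of log2 means between the 2 DEHP and the 3 vehicle mice (points) with limma's 95% interval (lines) for each of the 33 tested genes, grouped by role. Cpt1b and Acsl5, in red, are the genes whose mice did not overlap between the groups; the interval of every other gene, and that of Acsl5, includes 0.

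The enzymes of the beta-oxidation spiral gave 7 of 8 tested genes below 0, with a median difference of -0.14, and none past the test. Acadvl, the acyl-CoA dehydrogenase for the longest chains, lay at 0.43 and -0.85 with DEHP (mice 1 and 4) and -0.73, 0.58 and 0.57 with vehicle (mice 1, 2 and 4). Acadl, the long-chain dehydrogenase, lay at 0.59 and -0.76 with DEHP (mice 1 and 4) and -0.68, 0.44 and 0.41 with vehicle (mice 1, 2 and 4). Acadm, the medium-chain dehydrogenase, lay at 0.52 and -0.70 with DEHP (mice 1 and 4) and -0.80, 0.04 and 0.93 with vehicle (mice 1, 2 and 4). In all of these DEHP mouse 4 and vehicle mouse 1 were the low mice, so the low values were shared between the groups. The differences were -0.35 (SE 0.56) for Acadvl, -0.14 (SE 0.53) for Acadl and -0.15 (SE 0.60) for Acadm. The short-chain dehydrogenase gene Acads was not well above background on any array.

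Hadha and Hadhb encode the subunits of the mitochondrial trifunctional protein, which carries out the later steps for long chains. Hadha lay at 0.39 and -0.38 with DEHP (mice 1 and 4) and -0.32, 0.36 and -0.05 with vehicle (mice 1, 2 and 4). Hadhb lay at 0.18 and -0.29 with DEHP (mice 1 and 4) and -0.13, -0.11 and 0.35 with vehicle (mice 1, 2 and 4). Their differences, 0.01 (SE 0.33) and -0.09 (SE 0.26), were the smallest among the tested enzymes of the spiral, and their mice were also closest together. The Hadha probe used cleared background in a share of 0.833 of the DEHP channels and in all vehicle channels. Hadh, the hydroxyacyl-CoA dehydrogenase for shorter chains and among the 3 members of lowest unadjusted p, lay at -0.04 and -0.74 with DEHP (mice 1 and 4) and -0.48, 0.70 and 0.56 with vehicle (mice 1, 2 and 4). Both DEHP mice were below vehicle mice 2 and 4 but vehicle mouse 1 lay between them, and the difference of -0.65 (SE 0.43) had an unadjusted p of 0.19 and an adjusted p of 1 in limma. The thiolase gene Acaa2 differed by -0.68 (SE 0.83) and the enoyl-CoA isomerase gene Eci1, needed for unsaturated chains, by -0.13 (SE 0.49). Decr1, the dienoyl-CoA reductase also needed for unsaturated chains, cleared background in a share of 0.167 of the DEHP and 0.25 of the vehicle channels with the better of its 2 probes and was not tested.

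The electron transfer flavoprotein takes electrons from the acyl-CoA dehydrogenases, and Etfdh hands them on to ubiquinone. Etfdh lay at 0.54 and -0.97 with DEHP (mice 1 and 4) and -0.75, 0.41 and 0.77 with vehicle (mice 1, 2 and 4). DEHP mouse 4 was lowest and vehicle mouse 4 highest, with DEHP mouse 1 among the vehicle mice, and the difference was -0.36 (SE 0.62). The subunit genes Etfa and Etfb differed by 0.02 (SE 0.38) and -0.41 (SE 0.60), with overlapping groups.

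Among the genes of fuel choice, ketone use and uncoupling, 3 of 7 tested genes differed by more than 0 and 4 by less, none past the test. Pdk4, a kinase that switches off pyruvate dehydrogenase when fat is burned, lay at 0.99 and -0.38 with DEHP (mice 1 and 4) and -0.96, -0.30 and 0.65 with vehicle (mice 1, 2 and 4). Its DEHP mice lay on either side of the vehicle median, and the difference was 0.51 (SE 0.60), with an interval of -0.98 to 1.99. Angptl4, a secreted inhibitor of Lpl, lay at 1.23 and -0.85 with DEHP (mice 1 and 4) and -1.05, 0.23 and 0.43 with vehicle (mice 1, 2 and 4). DEHP mouse 1 stood above all others and vehicle mouse 1 below them, and the difference was 0.32 (SE 0.73). Pdk4 and Angptl4 thus gave positive differences with intervals that reach far below 0. Without DEHP mouse 1 both differences were negative, at -0.18 and -0.72.

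Oxct1, the enzyme that activates ketone bodies in tissues other than liver, lay at 0.16 and -0.50 with DEHP (mice 1 and 4) and -0.08, 0.00 and 0.42 with vehicle (mice 1, 2 and 4). DEHP mouse 4 was lowest, and the difference was -0.29 (SE 0.29). Plin2, a coat protein of lipid droplets, lay at 0.05 and -0.30 with DEHP (mice 1 and 4) and 0.12, 0.09 and 0.05 with vehicle (mice 1, 2 and 4). The vehicle mice were within 0.037 (SD) of one another and DEHP mouse 1 was level with vehicle mouse 4, so that the difference of -0.21 (SE 0.20) came from DEHP mouse 4. Ucp2, a mitochondrial carrier of the uncoupling protein family, lay at 0.09 and -0.12 with DEHP (mice 1 and 4) and -0.06, -0.25 and 0.35 with vehicle (mice 1, 2 and 4). Its DEHP mice lay within the range of the vehicle mice, and the difference was -0.03 (SE 0.25). The pantetheinase gene Vnn1 and the fatty aldehyde dehydrogenase gene Aldh3a2 differed by 0.10 (SE 0.50) and -0.11 (SE 0.32). Ucp3, an uncoupling protein named for muscle, cleared background in no DEHP channel and a share of 0.0833 of the vehicle channels, and no fold is given.

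Between mice of 1 group the members lay further apart than between the group means: for 32 of the 33 tested members the gap between the DEHP mice was larger than the difference between the groups, against 79.3% of all genes tested. Repeated arrays allowed the RNA extracts of single mice to be compared, with limma on the 12 log ratios and adjustment over all genes. This compares extracts and not conditions. Between DEHP mice 4 and 1, all 33 tested members passed an adjusted p of 0.05, 27 lower and 6 higher in mouse 4, against 41.1% of all genes lower and 36.3% higher. The median was -0.84 for the members and -0.05 for all genes tested. Between vehicle mouse 1 and the mean of vehicle mice 2 and 4, 30 of 33 passed, 26 lower and 4 higher in mouse 1, against 38.2% of all genes lower and 33.9% higher. The 3 that did not pass were Acsl5, Plin2 and Slc27a2. The median was -0.68 for the members and -0.03 for all genes tested. The contrasts come from the same 12 arrays, so they are not independent of each other.

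The largest gap between the DEHP mice was that of Fabp3, -3.06 (SE 0.06), which made it 8.35-fold lower in mouse 4 (adjusted p = 2.78e-11 in limma). Acaa2, the thiolase that closes each turn of the spiral, differed by -2.35 (SE 0.05), Angptl4 by -2.08 (SE 0.03) and Etfb by -1.88 (SE 0.05). By the probes used, all 8 tested enzymes of the spiral and all 3 flavoprotein genes were lower in DEHP mouse 4, with medians of -1.22 and -1.51. The same 11 genes were lower in vehicle mouse 1 than in the mean of vehicle mice 2 and 4, with medians of -1.11 and -0.80. In that contrast Acaa2 again stood far out, at -1.58 (SE 0.06), beside Acsl4 at -1.54 (SE 0.04) and Cpt1a at -1.38 (SE 0.06). Other passing probes of Hadha, Acsl4, Ucp2 and Oxct1, which were lower by the probes used, did not all share this (differences of mouse values, with no test). For Hadha they gave 0.21 and -0.40 between the DEHP mice, and 0.55 and -0.14 between the vehicle mice in the same order. The second Acsl4 probe gave 0.51 and -0.37 in these contrasts, and the second Ucp2 probe 0.16 and 0.26. The other Oxct1 probes gave -0.12 and -0.13 between the DEHP mice, and -0.01 and 0.06 between the vehicle mice in the same order.

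A smaller set ran the other way. Higher in DEHP mouse 4 than in mouse 1 were Fabp1 by 1.05 (SE 0.07), Cpt1b by 0.77 (SE 0.06), Acsl1 by 0.58 (SE 0.05), Acsl3 by 0.42 (SE 0.05), Acsl5 by 0.41 (SE 0.09) and Slc27a2 by 0.31 (SE 0.11). Higher in vehicle mouse 1 were Fabp1 by 1.60 (SE 0.07), Acsl1 by 0.92 (SE 0.05), Cpt1b by 0.20 (SE 0.07) and Acsl3 by 0.15 (SE 0.06). Acsl1, Acsl3, Cpt1b and Fabp1 were thus, by the probes used, higher in both of the mice whose enzymes of the spiral were lower. The other Cpt1b probe did not share this, at -0.49 between the DEHP mice and 0.65 between the vehicle mice, nor did the Acsl1 probe furthest downstream, at 0.65 and -0.21 (differences of mouse values, with no test). Fabp1 reached 2.08-fold and 3.03-fold in these contrasts. In vehicle mouse 2, where Fabp1 was lowest at -1.18, its probe cleared background in a share of 0.75 of the channels.

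**Figure D3:**
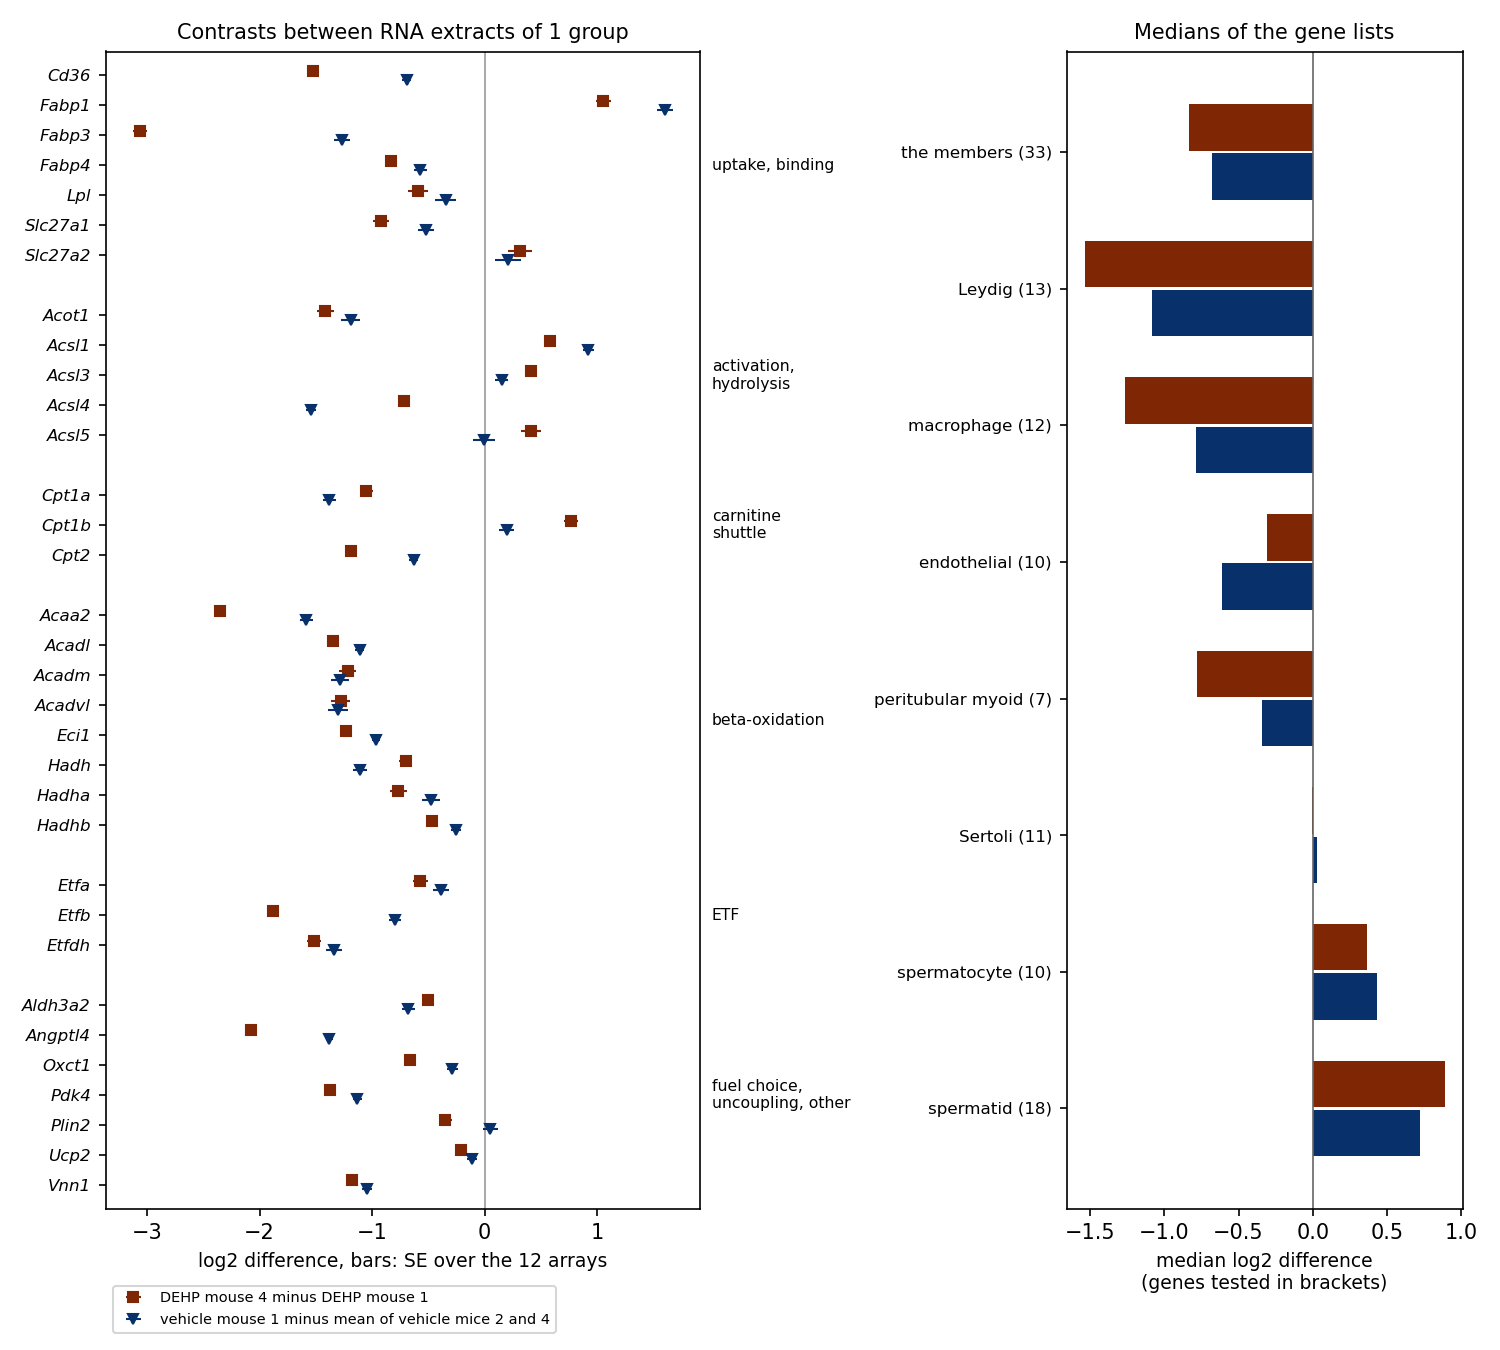
Left, log2 differences between RNA extracts of 1 group for the 33 tested genes, DEHP mouse 4 minus DEHP mouse 1 (squares) and vehicle mouse 1 minus the mean of vehicle mice 2 and 4 (triangles), with the SE over the 12 arrays. Right, median of the same 2 contrasts over the members and over marker lists of testis cell types, in the same colours. The members and the Leydig cell, macrophage, endothelial and peritubular myoid markers have negative medians in both contrasts. The spermatid and spermatocyte markers have positive ones, and those of the Sertoli cell markers are -0.01 and 0.03.

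Markers of several cell types moved along with these differences, while Sertoli cell markers were mixed. The median of the 13 Leydig cell markers was 0.74 and -0.87 with DEHP (mice 1 and 4) and -0.50, 0.25 and 0.55 with vehicle (mice 1, 2 and 4), and that of the members 0.32, -0.51, -0.37, 0.15 and 0.43 in the same order. The mice low for the one were low for the other. In DEHP mouse 4 against mouse 1, 12 of 13 Leydig cell markers and 9 of 12 macrophage markers were lower and none was higher, while 17 of 18 spermatid markers were higher and none was lower. In vehicle mouse 1 against mice 2 and 4, 11 Leydig cell and 9 macrophage markers were lower, and 15 spermatid markers were higher. Endothelial markers were lower for 10 of 10 and 8 of 10 genes in these contrasts and peritubular myoid markers for 6 of 7 and 4 of 7, with none of either list higher. Of 11 Sertoli cell markers, 2 were higher and 4 lower in the DEHP contrast, and 4 higher and 4 lower in the vehicle contrast. Of 10 spermatocyte markers, 7 were higher and 1 lower, then 6 higher and 1 lower. Of all genes tested, 41.1% were lower and 36.3% higher in the DEHP contrast, and 38.2% and 33.9% in the vehicle contrast. The spermatid marker medians were -0.02 and 0.76 in the DEHP mice and 0.21, -0.58 and -0.38 in the vehicle mice, and the macrophage medians 0.49, -0.70, -0.44, 0.02 and 0.56. The part of these markers' cells in the members' differences was not tested. Adipoq, an adipocyte marker, was 1.19 higher in DEHP mouse 4, whereas Plin1, another, differed by -1.07 and Cidec by 0.95, so that 2 of the 3 detected adipocyte markers were higher and 1 was lower in that mouse.

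The spread between mice was far above that between repeated arrays. The members' 5 mouse values had a median SD of 0.60, against 0.30 over all genes tested, while the residual SD of their array log ratios was 0.095, against 0.099 over all genes. For Acaa2 the 10 spots of its probe had a median SD of 0.028 within an array, and the 5 mice an SD of 1.13. The first principal component of the 5 mice held 85.1% of the variance of the members and 68.8% of that of all genes tested. DEHP mouse 4 was the lowest of the 5 mice for 17 of the 33 members, against 29.9% of all genes tested. DEHP mouse 1 and vehicle mouse 4 were each the highest for 11, against 13.3% and 19.8% of all genes.

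The direction of the DEHP minus vehicle differences turned on single mice. Without DEHP mouse 1, 27 of 33 members lay below 0 and the median was -0.60; without DEHP mouse 4, 29 lay above 0 and the median was 0.30. With 1 DEHP mouse left, such a fit takes its spread from the vehicle group and assumes the lone mouse to share it. Without vehicle mouse 1, 2 or 4 the medians were -0.35, -0.08 and 0.07. No member passed in any of these fits. Cpt1b ran from 0.38 to 1.14 in them and Acsl5 from 0.23 to 0.64. As the groups did not overlap for these genes, leaving out 1 mouse could not turn their sign. Acsl1, Hadh, Plin2 and Slc27a2, whose groups overlapped, also kept their sign, while Fabp3 ran from -2.22 to 0.84. The 3 slides also differ in the vehicle mice they hold: the members' median was 0.14 on slide 1 and -0.01 on slide 2, which hold vehicle mice 1 and 2 in opposite dye orientations, and -0.48 on slide 3, which holds vehicle mouse 4.

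**Figure D4:**
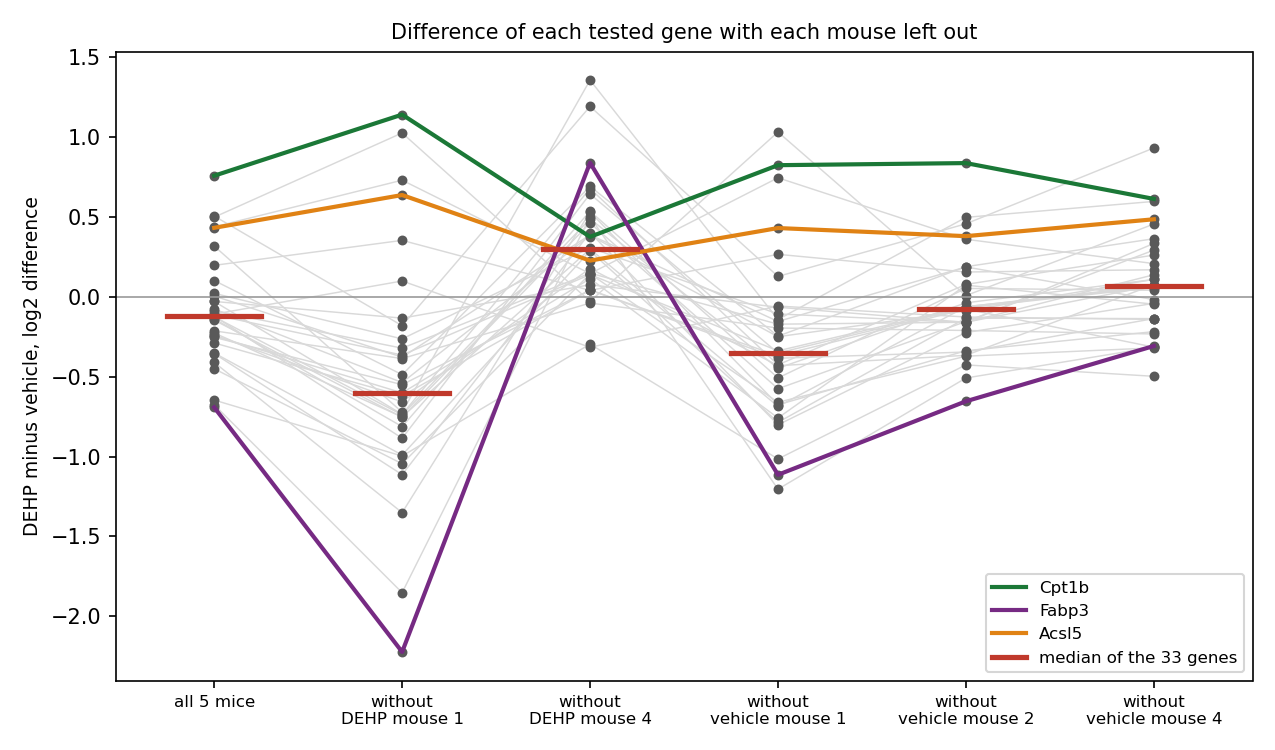
DEHP minus vehicle difference (log2, y axis) of each of the 33 tested genes with all 5 mice and with each mouse left out in turn (x axis); each point is a gene, grey lines join a gene's values and red bars are the medians. The median moves from -0.60 without DEHP mouse 1 to 0.30 without DEHP mouse 4. Of the genes in colour, Cpt1b and Acsl5 stay above 0, which follows from groups that do not overlap, and Fabp3 does not keep its sign.

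Of the members, 13 had more than 1 probe and 9 had more than 1 that passed. Within a gene the probes did not always run together. The Acsl4 probe that stands for the gene lies at chrX:136982376-136982435 and read 0.21 and -0.50 in DEHP mice 1 and 4. The second, printed above and upstream of it on the transcript, read -0.33 and 0.18 in them, the reverse order. Both were well above background on all arrays, and neither showed a difference between the groups beyond its error, at -0.24 (SE 0.55) and -0.13 (SE 0.25).

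For Acsl1 the probe used and the second probe, which lie close together, gave 0.44 (SE 0.38) and 0.44 (SE 0.37), while another probe further downstream at chr8:45313747-45313806 gave 0.09 (SE 0.25). The 3 Oxct1 probes gave -0.29 (SE 0.28), 0.03 (SE 0.17) and, for the junction probe printed above, -0.05 (SE 0.18); the last pair cleared background in a share of 0.75 and 0.333 of the DEHP channels. The Hadha probe used is named by the array for a cDNA clone and lies apart from the probe of the reference transcript, which gave -0.01 (SE 0.20). Of Slc27a2, a probe for a cDNA clone lies on the opposite strand from the other probes of the gene and was not well above background on any array.

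**Figure D5:**
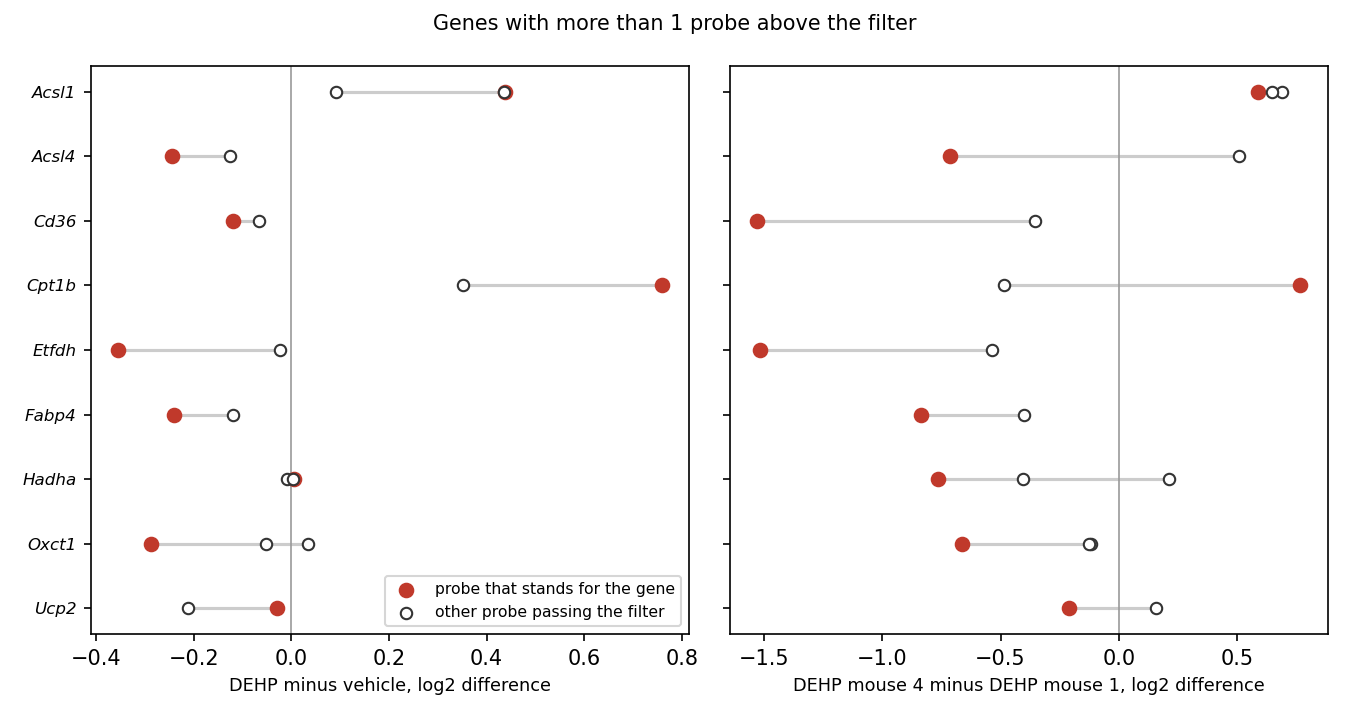
Log2 differences by probe for the 9 genes with more than 1 probe passing the filter, DEHP minus vehicle on the left and DEHP mouse 4 minus DEHP mouse 1 on the right; the filled point is the probe that stands for the gene. On the right the probes of Acsl4, Cpt1b, Hadha and Ucp2 lie on both sides of 0.

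The wider pathway gave the same absence of calls. Of 86 related genes on 6 further lists, 74 were tested, 26 lay above 0 and 48 below, none passed in limma with 5 mice or had an unadjusted p under 0.05, and the groups did not overlap for 5 of the 74, against 9.17% of all genes tested. The 20 tested genes of 23 other mitochondrial oxidation genes had 16 below 0, against 51.7% of all genes, and a median of -0.17. Of them, Acad9, a flavoprotein that also helps to assemble complex I, differed by -0.35 (SE 0.23) and Slc25a29, a carrier of the mitochondrial inner membrane, by -0.53 (SE 0.62). Like the members, 17 of these 20 were lower in DEHP mouse 4 than in mouse 1, and 1 was higher. The other lists were less one-sided. Of other uptake, binding and activation genes 7 were lower and 7 higher, and of lipid droplet and lipolysis genes 7 and 5. For the list of kinases, thioesterases and uncoupling proteins the counts were 6 and 6, for regulators 4 and 2, and for ketone body genes 3 and 1. Of all genes tested 41.1% were lower and 36.3% higher in that contrast.

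Of the ketone body genes 5 of 6 were tested, with 3 above 0 and 2 below. Oxct2a, the testis form of the enzyme that Oxct1 encodes, lay at 0.00 and 0.96 with DEHP (mice 1 and 4) and -0.08, -0.29 and -0.58 with vehicle (mice 1, 2 and 4). Both DEHP mice were above the vehicle mice, DEHP mouse 1 only just, and the difference of 0.80 (SE 0.34) had an adjusted p of 1 in limma. Oxct2a was 0.96 higher in DEHP mouse 4 than in mouse 1, whereas Oxct1 was -0.66 in the same contrast.

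The 15 tested genes of 19 for other uptake, binding and activation steps had 6 above 0, 9 below and a median of -0.01. Fabp9, the fatty acid binding protein of the testis, differed by 0.44 (SE 0.32) and its relative Fabp12 by 0.78 (SE 0.63). Both were higher in DEHP mouse 4 than in mouse 1, by 0.58 and 1.21, as Fabp1 was.

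Of the lipid droplet and lipolysis genes 12 of 13 were tested, 4 above 0 and 8 below. Abhd5, the activator of the lipase that Pnpla2 encodes, lay at -0.16 and -0.40 with DEHP (mice 1 and 4) and 0.00, 0.33 and 0.24 with vehicle (mice 1, 2 and 4), with both DEHP mice below the vehicle mice and a difference of -0.47 (SE 0.21). Cidec, a lipid droplet fusion protein, differed by 0.60 (SE 0.32) with overlapping groups. Of the pyruvate dehydrogenase kinases, other thioesterases and uncoupling proteins 13 of 15 were tested, 7 above 0 and 6 below, and the thioesterase genes Acot8 and Acot11 had the lowest p, at 0.30 (SE 0.29) and -0.38 (SE 0.40). Of the regulators 9 of 10 were tested, 2 above 0 and 7 below, with Pparg, a receptor of the PPAR family, at -0.29 (SE 0.27) and Rxra, the partner of the PPARs on DNA, at -0.37 (SE 0.46).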

How the data were processed

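Gene expression was measured on 12 two-colour arrays of laser-captured Leydig cell RNA from 2 DEHP and 3 vehicle mice. Per the file headers, Feature Extraction 9.5.1.1 wrote the deposited scanner files, which hold each spot's intensity and local background in both channels and were not normalized between arrays. A processed intensity and a log10 ratio, deposited with them, are background-subtracted and dye-normalized by the scanner software. Deposited flags mark spots well above background or outlying. The authors' deposited value table holds log2 ratios. Its 12 columns correlated with the scanner's log ratios at 0.915 to 0.993 once signs were aligned, which made DEHP the numerator; column medians lay between -0.057 and 0.0040. Its normalization is not given in the sources used here. The submitters' processing notes name limma.

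Normexp (offset 50) and loess within arrays were run with limma 3.58.1 in R 4.3.3. Outlier-marked spots were dropped and spots of a probe averaged. A value per mouse and a dye effect were then fitted to the 12 log ratios by least squares. The filter kept probes that cleared background on 50% or more of the arrays of 2 or more mice, and the brightest probe stood for a gene. lmFit and eBayes on the 5 mouse values compared the groups, with Benjamini-Hochberg adjustment over 15830 genes and a threshold of 0.05. Differences between extracts were fitted on the 12 arrays. The fit was tested on simulated data. Mice were left out in turn; background, normalization, filter, probe, dye, slide, block and replicate unit were varied, and the authors' table was used.

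The members and lists were chosen with earlier results of these data known. Every member was accounted for. Mouse values were given for members set as anchors of their roles, those whose groups did not overlap and the 3 of lowest p; of each related list, the 2 of lowest p were named, except 1 that is not reported here.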

Additional observations from a re-analysis of the deposited data

How the results depend on the processing

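No gene passed limma's test with 5 mice under any other setting that keeps the mouse as the replicate. Treating the 12 arrays as independent, which counts repeated arrays of a mouse as animals, gave 2123 genes, Cpt1b, Acsl5 and Hadh among them. The members' median of -0.12 moved by more than its spread between mice only with a DEHP mouse left out: without each mouse in turn it ran from -0.60 to 0.30. The within-group calls stayed within 1.5 times of 33 and 30 members under every other setting run for them. Without background subtraction Acot1, Etfa and Hadha changed sign, to 0.0066, -0.0014 and -0.042. Ucp2 changed sign with the scanner's processed signals (0.11) and Hadha with the mean of its probes (-7.9e-05). With the processed signals 11 members kept their sign but moved by over 1.5 times, Slc27a2 (1.42), Lpl (-0.83), Fabp1 (0.87) and Acsl3 (-0.38) among them, and 7 did so in the authors' deposited table. Mouse numbers that the groups share do not pair the animals in the labels, and same-numbered mice deviated in opposite directions (r = -0.73 for number 1 and -0.56 for number 4, over genes). With 2 DEHP mice the deviations from their mean mirror each other, so these correlations are tied and cannot decide whether numbers pair animals. A replicate block on the number, which here equals leaving out vehicle mouse 2, called 0 genes, gave a median of -0.08 and turned Acadl (0.053), Acot1 (0.078), Acsl4 (0.073) and Etfa (-0.16). In the authors' deposited value table, 26 members had a median of -0.15 and no gene passed. The other settings with all 5 mice turned no member, apart from single slides, which have no test.

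With each mouse left out in turn, the following tested members changed sign in at least 1 fit; none was called in any, and the cause of the sign changes was not tested. The differences ran, in uptake and binding, from -0.89 to 0.64 for Cd36, -0.03 to 1.03 for Fabp1 (-0.029 without DEHP mouse 4), -2.22 to 0.84 for Fabp3, -0.66 to 0.18 for Fabp4, -0.55 to 0.04 for Lpl (0.043 without DEHP mouse 4) and -0.54 to 0.38 for Slc27a1. They ran from -0.74 to 0.68 for Acot1, -0.32 to 0.10 for Acsl3 and -0.76 to 0.11 for Acsl4, and from -0.75 to 0.30 for Cpt1a and -1.04 to 0.14 for Cpt2. In the spiral they ran from -1.85 to 0.50 for Acaa2, -0.81 to 0.54 for Acadl, -0.75 to 0.46 for Acadm, -0.99 to 0.29 for Acadvl, -0.74 to 0.49 for Eci1, -0.38 to 0.39 for Hadha and -0.32 to 0.15 for Hadhb. For the flavoprotein genes they ran from -0.26 to 0.33 for Etfa, -1.35 to 0.53 for Etfb and -1.11 to 0.40 for Etfdh. For the remainder they ran from -0.36 to 0.14 for Aldh3a2, -0.72 to 1.36 for Angptl4, -0.62 to 0.04 for Oxct1 (0.042 without DEHP mouse 4), -0.18 to 1.19 for Pdk4, -0.16 to 0.14 for Ucp2 and -0.49 to 0.69 for Vnn1. Cpt1b, Acsl1, Acsl5, Hadh, Plin2 and Slc27a2 kept their sign in all of these fits. For Cpt1b and Acsl5 this follows from groups that do not overlap. The small number of animals limits all members, and signal near background limits Lpl, Slc27a2 and Ucp2. The probes used for Hadha, Acsl3 and Fabp1 also did not clear background on every array. The share was 0.833 and 0.917 of the DEHP channels for Hadha and Acsl3, and 0.917 of the vehicle channels for Fabp1.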
